A study of Mus musculus with 4 samples.

Results

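The data describe 10 genes of salt, magnesium and calcium transport in the distal nephron (Slc12a3, Wnk1, Wnk4, Klhl3, Stk39, Trpm6, Pvalb, Calb1, S100g and Trpv5) across distal tubule cell classes of the injured mouse kidney. The genes were chosen by symbol, and all 10 were found among the 31053 genes listed in each of the 4 count matrices. Single-cell RNA sequencing was performed on injured kidneys of male mice of the C57BL/6 strain, with 1 library per group, and the injury was ischemia-reperfusion (I/R). The libraries came from day 5 (IR_d5), day 14 (IR_d14) and day 28 (IR_d28) after injury, and from day 5 in mice gavaged for the preceding 4 weeks with the bacterium L. casei Zhang at 1000000000 colony-forming units a day (IR_Lac.z_d5). All groups shared the injury. The sources used here give neither the animals' age, nor the number of animals behind a library, nor the gavage of the other mice, and uninjured kidney was not analysed here. With 1 library per group there is no test of any difference between groups, and every interval below covers counting error only.

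The distal convoluted tubule (DCT) reabsorbs sodium chloride through the thiazide-sensitive cotransporter encoded by Slc12a3. WNK kinases (Wnk1, Wnk4) activate the kinase SPAK (Stk39), which phosphorylates the cotransporter, and the adaptor encoded by Klhl3 brings WNK kinases to a ubiquitin ligase for degradation. The same segment takes up magnesium through the channel encoded by Trpm6, and its later portion and the connecting tubule take up calcium through the channel Trpv5 and shuttle it with the calbindins Calb1 and S100g, whereas parvalbumin (Pvalb) is a calcium buffer of the early DCT.

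In the mouse genome build GRCm38, by the GENCODE vM21 annotation, all 10 genes are protein coding. Slc12a3 occupies chr8:94329201-94366214 on the plus strand, Trpm6 chr19:18749983-18892511 on the plus strand, Pvalb chr15:78191114-78206400 on the minus strand and S100g chrX:162961992-162964599 on the minus strand. Promoter windows of 300 bases, running from 250 bases before to 50 bases after the annotated start, were found for 9 of the 10 genes in RefSeq (GRCm38.p6). Those of 4 genes are shown because their transcripts carried the clearest contrasts between libraries or sub-clusters. Capitals mark the TATA box motif TATAAA.
Slc12a3, chr8:94328958-94329257, plus strand: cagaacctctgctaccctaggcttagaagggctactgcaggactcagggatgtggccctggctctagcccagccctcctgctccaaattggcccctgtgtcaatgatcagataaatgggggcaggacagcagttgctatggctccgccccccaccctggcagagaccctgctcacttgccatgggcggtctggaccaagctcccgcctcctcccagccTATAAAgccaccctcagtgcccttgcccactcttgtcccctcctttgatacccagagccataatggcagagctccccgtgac
Trpm6, chr19:18749480-18749779, plus strand: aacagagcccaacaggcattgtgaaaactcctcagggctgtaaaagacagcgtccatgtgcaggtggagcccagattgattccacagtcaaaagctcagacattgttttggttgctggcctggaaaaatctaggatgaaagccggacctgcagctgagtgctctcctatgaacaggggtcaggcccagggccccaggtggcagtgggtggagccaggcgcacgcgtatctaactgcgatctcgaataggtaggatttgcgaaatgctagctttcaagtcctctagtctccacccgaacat
Pvalb, chr15:78206351-78206650, minus strand: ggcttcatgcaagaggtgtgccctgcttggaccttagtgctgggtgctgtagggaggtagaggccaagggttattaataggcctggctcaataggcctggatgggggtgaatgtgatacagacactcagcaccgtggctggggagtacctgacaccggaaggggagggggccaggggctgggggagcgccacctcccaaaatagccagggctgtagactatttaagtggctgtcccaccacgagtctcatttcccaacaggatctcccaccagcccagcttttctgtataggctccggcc
S100g, chrX:162964550-162964849, minus strand: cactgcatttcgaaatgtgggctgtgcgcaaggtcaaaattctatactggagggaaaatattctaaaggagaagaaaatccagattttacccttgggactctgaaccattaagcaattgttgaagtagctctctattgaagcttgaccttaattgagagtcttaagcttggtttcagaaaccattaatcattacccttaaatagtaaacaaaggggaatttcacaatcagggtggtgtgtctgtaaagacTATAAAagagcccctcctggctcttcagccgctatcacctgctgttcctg
The motif lay 32 bases before the annotated start in Slc12a3 and 0 bases from it in S100g, and the windows shown for Trpm6 and Pvalb did not hold it. Of 32841 RefSeq promoter windows of this length, 13.6% held TATAAA on either strand. Also searched on both strands were GTTAAT, a half-site of HNF1 factors, held by 7.1% of all windows, and TGTTCT, a half-site of steroid hormone receptors, held by 19.0%. Neither was found in these 4 windows; a second RefSeq window of Pvalb (chr15:78204188-78204487, not shown) held TGTTCT, starting 39 bases after its start, and none of the 3 motifs overlapped another. The RefSeq start used for Trpm6 lies 253 bases upstream of the GENCODE gene start, and a match of these letters is a description only.

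The libraries held 76678882 to 104454319 unique molecular identifiers (UMIs), and 6684 (day 5), 6646 (day 5 Lac.z), 8839 (day 14) and 12539 (day 28) cells were kept. Pairs of libraries shared 11 to 33 cell barcodes. Distal cells were gated by clusters made without the 10 genes and named from other markers. The DCT-like cluster held 1030 cells, the thick ascending limb-like (TAL-like) cluster 672, the collecting duct intercalated-like cluster 499 and the collecting duct principal-like cluster 191. Connecting tubule markers named no separate cluster and were the runner-up for the DCT-like and principal-like clusters. The DCT-like cluster held 53 (day 5), 108 (day 5 Lac.z), 269 (day 14) and 600 (day 28) cells, which was 0.793% (exact 95% interval 0.595 to 1.04), 1.63% (1.34 to 1.96), 3.04% (2.70 to 3.42) and 4.79% (4.42 to 5.17) of the kept cells. Macrophage-like cells made up 60.4%, 25.6%, 11.3% and 4.40% of the same kept cells. Of the named tubule cells (proximal tubule and the 4 distal classes), DCT-like cells were 3.97% (2.99 to 5.16), 3.13% (2.57 to 3.76), 4.81% (4.26 to 5.40) and 6.49% (6.00 to 7.01), a denominator chosen after the data were seen. On it the Lac.z library was below the day 5 library, with overlapping intervals. In a dissociated sample, fewer cells of a class and fewer cells released or surviving cannot be told apart.

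The gate was checked with Slc12a3, the defining gene of the segment, which it had not used. At least 1 Slc12a3 UMI was found in 86.8%, 89.8%, 92.9% and 96.2% of DCT-like cells in the order day 5, day 5 Lac.z, day 14 and day 28, an order kept for all series of 4 values below. Macrophage-like cells, which should lack the gene and were at least as deep in 3 of 4 libraries (median 11258, 11096, 9591 and 5674 UMIs against 5707, 5695, 5075 and 6745), had a Slc12a3 UMI in 1.91%, 1.17%, 3.303% and 2.72%. The DCT-like cluster was not one homogeneous population, since its top genes included Klk1 and Umod and it split into sub-clusters described below.

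Levels of the 10 genes are given as CPM, the UMIs of the gene summed over the cells of a class for every 1000000 UMIs of that class. Levels are compared between cells for the same gene and never between genes. Higher or lower is used for a ratio of at least 1.5-fold where each library had 50 or more cells of the class and the gene had 50 or more UMIs over the pair. Among the 4 distal classes, Slc12a3, Wnk1, Wnk4, Klhl3, Trpm6 and Pvalb were highest in DCT-like cells in every library, whereas Stk39 lay between 81.7 and 161 CPM in all of them. Trpv5, by whole class, was highest in principal-like cells. In macrophage-like cells Wnk1 was also found, at 278 to 453 CPM, and Stk39 stood at 1.45 to 8.27 CPM.

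**Figure D1:**
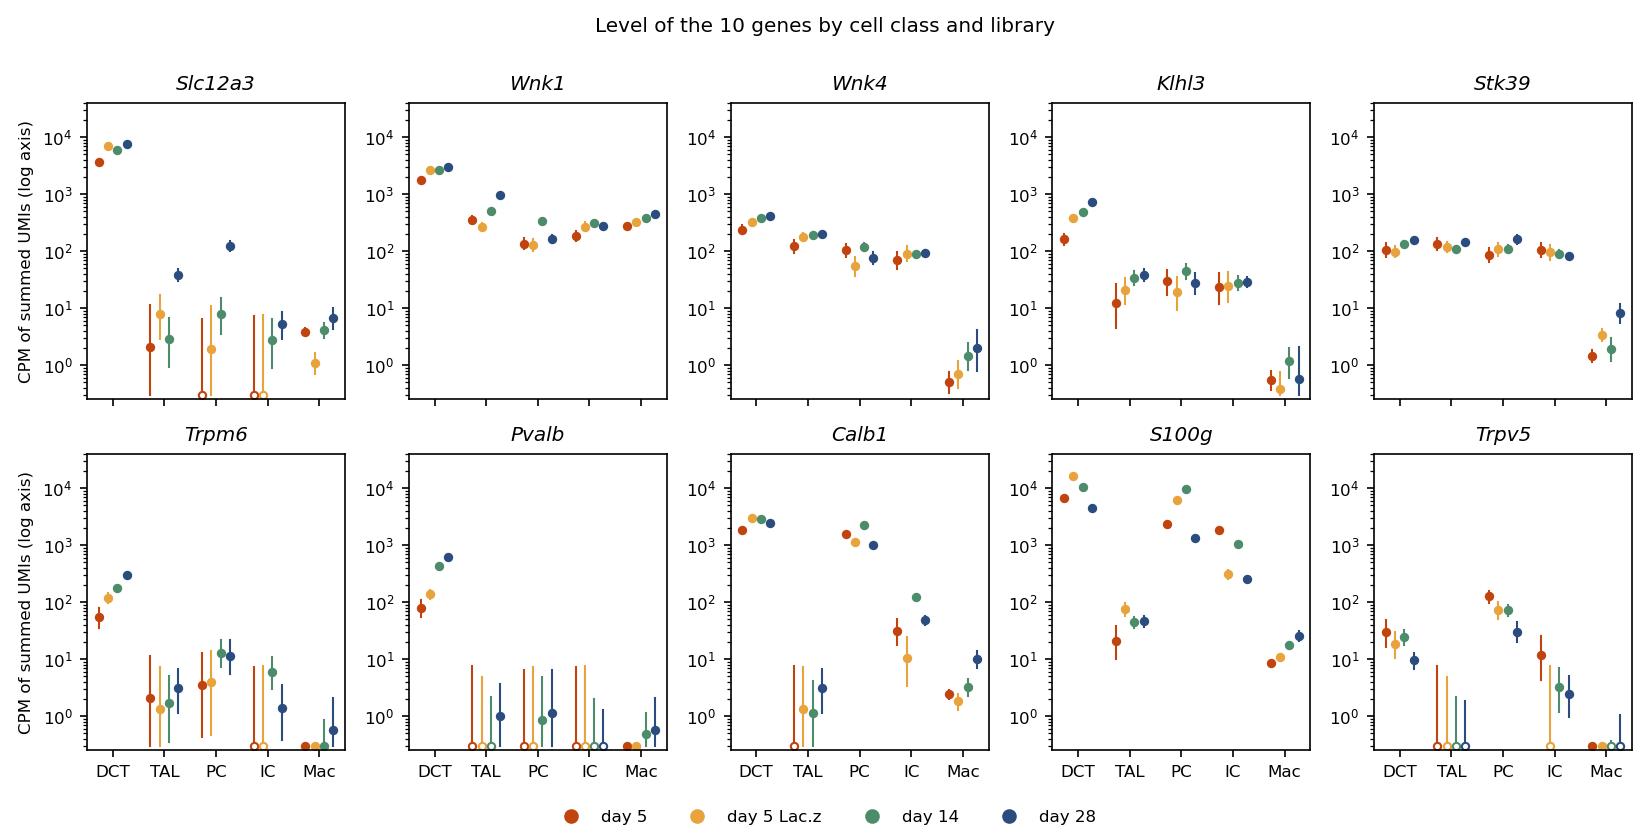
Level of each of the 10 genes (CPM of summed UMIs, log axis) in DCT-like, TAL-like, collecting duct principal-like (PC), intercalated-like (IC) and macrophage-like (Mac) cells of each library. Bars are exact 95% Poisson intervals, open points are sums of 0 and values under 0.3 CPM are drawn at 0.3; Slc12a3, Trpm6 and Pvalb fall by more than a log10 unit from DCT-like cells to every other class shown.

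The cotransporter gene Slc12a3 stood at 3732 CPM (95% Poisson interval 3560 to 3909) in the DCT-like cells of day 5, 6887 (6708 to 7070) in those of day 5 Lac.z, 5836 (5727 to 5947) in those of day 14 and 7440 (7359 to 7521) in those of day 28. The day 5 library was the lowest of the 4, and none of the 4 intervals overlapped. Per cell, the median was 22.6, 35.1, 33.8 and 63.8 Slc12a3 UMIs per 10000, so the day 28 library also had the highest typical cell. Slc12a3 was 1.85-fold higher (1.75 to 1.95) with Lac.z than without at day 5, 1.56-fold higher (1.49 to 1.65) at day 14 than day 5 and 1.99-fold higher (1.90 to 2.09) at day 28 than day 5. The difference between days 28 and 14 was 1.27-fold (1.25 to 1.303) and below the 1.5-fold limit.

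Wnk1, whose kidney-specific short transcript lacks the kinase domain and is known to dominate in the mouse DCT, stood at 1791, 2617.5, 2688 and 2965 CPM; the counts do not separate transcripts. The day 5 library was again the lowest. Only the day 28 over day 5 ratio, 1.65-fold (1.54 to 1.78), passed the limit. Wnk4, the kinase that acts on the cotransporter through SPAK, stood at 239, 325, 384 and 417 CPM and was 1.60-fold higher (1.31 to 1.97) at day 14 and 1.74-fold higher (1.44 to 2.12) at day 28 than at day 5. Stk39, the SPAK kinase itself, stood at 105, 98.5, 134 and 159 CPM and passed the limit in no comparison, with a ratio of 0.938 (0.651 to 1.36) for Lac.z over day 5. Its day 28 over day 5 ratio was 1.52 (1.14 to 2.06), which fell under the limit once 1 UMI was added to each sum, as was done for every call.

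Klhl3, the ubiquitin ligase adaptor, showed a wider range, with 162, 378, 489 and 719 CPM. Its 4 intervals, of which that of day 5 ran from 128 to 202, did not overlap. Klhl3 was 2.34-fold higher (1.82 to 3.04) with Lac.z, 3.02-fold (2.39 to 3.86) at day 14 and 4.44-fold (3.54 to 5.65) at day 28, each over day 5. After each cell was thinned to 2000 UMIs, a Klhl3 UMI remained in 13.6%, 40.4%, 47.8% and 61.4% of cells; before thinning the shares were 52.8%, 60.2%, 66.9% and 73.3%. Cells with fewer UMIs were left out of the thinned shares, 9, 14, 45 and 97 in the same order.

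The magnesium channel gene Trpm6 followed the same order, with 54.6, 118, 175 and 299 CPM from 26, 96, 324 and 1295 UMIs. The day 5 value was the lowest and the day 28 value the highest, and the 4 intervals did not overlap. Trpm6 was 2.16-fold higher (1.39 to 3.48) with Lac.z, 3.20-fold higher (2.14 to 4.97) at day 14 and 5.48-fold higher (3.72 to 8.42) at day 28 than at day 5. It was also 1.71-fold higher (1.52 to 1.94) at day 28 than at day 14. Of 249 thinned DCT-like cells with a Trpm6 UMI, 248 also had a Slc12a3 UMI.

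Pvalb had the widest range of the 10 genes among called ratios. It stood at 77.7 CPM (54.7 to 107) in the day 5 library, 138 (114 to 166) in the Lac.z library, 426 (396 to 456) for day 14 and 620.2 (597 to 644) for day 28. Both day 5 libraries lay well below both later libraries. Pvalb was 1.77-fold higher (1.21 to 2.65) with Lac.z, 5.48-fold higher (3.94 to 7.84) at day 14 and 7.98-fold higher (5.78 to 11.4) at day 28 than at day 5. A Pvalb UMI was found in 20.8%, 24.1%, 43.1% and 60.5% of DCT-like cells, and in 15.9%, 14.9%, 34.4% and 46.5% after thinning. A second, separate draw of the thinning, used for pairs of genes, gave 6 of 44, 12 of 94, 76 of 224 and 237 of 503 cells. At equal depth the Lac.z library was thus not above the day 5 library in the share of positive cells, so its higher CPM is not read as an order of the 2 libraries. In macrophage-like cells the share was at most 0.501%.

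The calcium genes had another order. Calb1, the larger calbindin, stood at 1840, 3045, 2841 and 2458 CPM, lowest at day 5 and highest with Lac.z. It was 1.66-fold higher (1.53 to 1.79) with Lac.z and 1.54-fold higher (1.44 to 1.66) at day 14 than at day 5, while the day 28 ratios, log2 0.42 over day 5 and -0.21 over day 14, were within the limit. When cells were gated one by one on markers, the log2 ratio of Lac.z over day 5 turned to -0.54, that of day 14 over day 5 was 0.27, and those of day 28 were 1.3 over day 5 and 1.03 over day 14. Without the highest cell of each library, day 28 over day 5 was 0.85. S100g, the smaller calbindin, stood at 6703 CPM (6473 to 6940), 16038 (15764 to 16316), 10356 (10211 to 10504) and 4409 (4347 to 4472). It was 2.39-fold higher (2.30 to 2.49) with Lac.z than without, and 1.52-fold lower (1.46 to 1.58) at day 28 than at day 5. Few cells carried these sums: 1 cell held 2059 of the 3192 S100g UMIs at day 5. Without the highest cell of each library, the log2 ratio of day 28 over day 5 turned from -0.60 to 0.65, and that of Lac.z over day 5 moved from 1.26 to 2.54. With the per-cell gate these 2 log2 ratios were -0.01 and 0.37, both within the limit. The direction of S100g between days 28 and 5 was therefore not stable. It turned without the highest cell of each library and under other processing choices given in the closing section. S100g was also 1.54-fold higher (1.49 to 1.60) at day 14 than at day 5, and that log2 ratio turned from 0.63 to -0.09 without doublet removal.

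Between days 28 and 14, S100g was 2.35-fold lower (2.30 to 2.40), and its log2 ratio was -1.23 with all cells and -1.24 without the highest cells. Trpv5, the calcium channel, was sparse, with 14, 15, 45 and 41 UMIs (29.4, 18.5, 24.2 and 9.5 CPM). It was 2.56-fold lower (1.64 to 4.01) at day 28 than at day 14 and 3.105-fold lower (1.56 to 5.81) than at day 5. A Trpv5 UMI was found in 7.55%, 8.33%, 7.81% and 4.00% of cells.

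**Figure D2:**
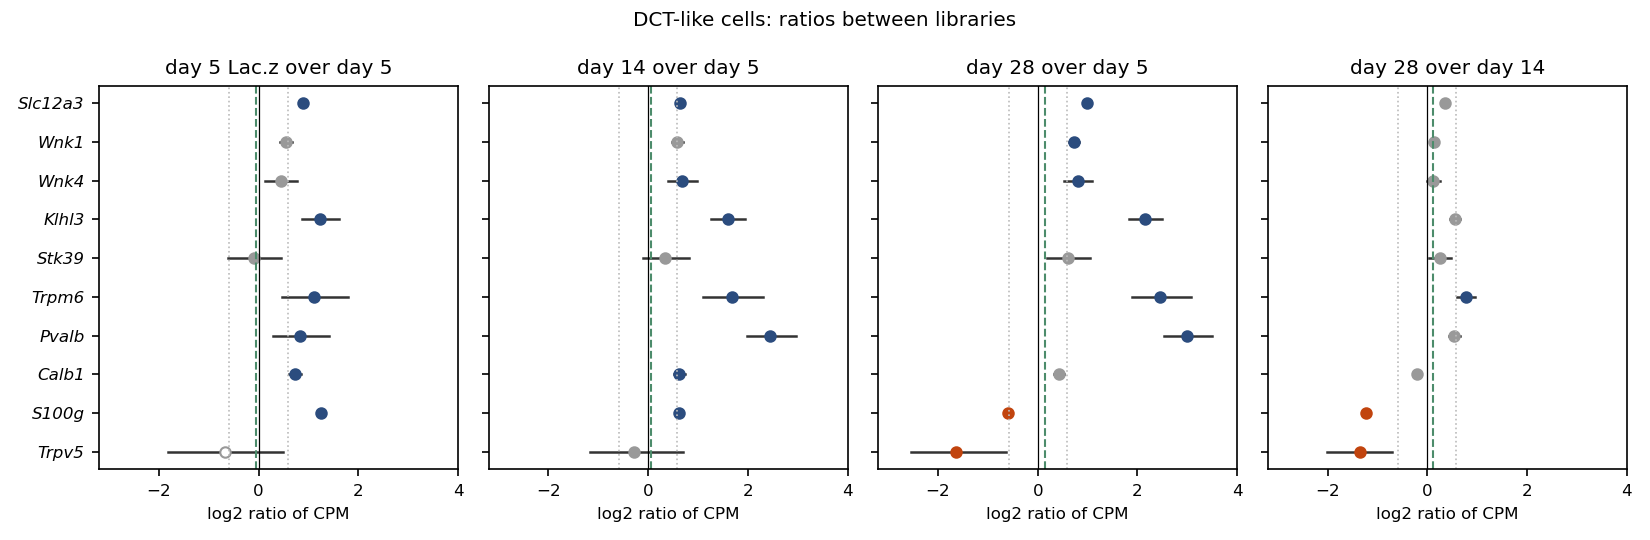
Log2 ratio of CPM in DCT-like cells for the 4 comparisons between libraries, with exact 95% conditional intervals for counting error. Blue points were called higher and red points lower at 1.5-fold (dotted lines) with 1 UMI added to each sum, the open point had too few UMIs, and the dashed green line is the median of all measured genes; Pvalb, Trpm6 and Klhl3 lie farthest right for days 14 and 28 over day 5.

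Counted together, 6 of 9 measured genes were higher and 0 lower in the Lac.z library than in the day 5 library, where 6.01% of all 3128 measured genes were called higher and 8.54% lower. Of those 6, Calb1 turned and S100g fell within the limit with the per-cell gate. Pvalb, also among the 6, was not above day 5 in its share of positive cells at equal depth. At day 14, 7 of 10 were higher than at day 5, and 0 were lower, against 14.4% higher, 7.02% lower and 21.4% in either direction of 5316 genes. At day 28, 6 of 10 were higher and 2 lower than at day 5, against 23.6% higher and 8.46% lower of 7957 genes. The 2 lower genes were S100g, whose direction was not stable, and Trpv5, with 14 UMIs at day 5, 7 of them in 1 cell. Without the highest cell of each library, the log2 ratio of Trpv5 was -1.12. These 3 comparisons share the day 5 library of 53 DCT-like cells. Between days 28 and 14, 1 of 10 genes was higher and 2 were lower, against 8.96% and 2.83% of 8591 genes. With the per-cell gate, 9 of 9 measured genes were past the limit between these days, with Slc12a3 at a log2 ratio of 1.196. The median log2 ratio of those of the 10 genes that were measured was 0.80, 0.64, 0.76 and 0.20 in these 4 comparisons. The first value, for Lac.z over day 5, covers 9 genes and leaves out Trpv5. For all measured genes the medians were -0.06, 0.06, 0.15 and 0.11.

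Mitochondrially encoded UMIs made up 22.5%, 22.5%, 16.9% and 10.3% of the UMIs of DCT-like cells. When mitochondrial genes were left out of the CPM, every log2 ratio moved by -0.21 for day 28 over day 5. The move was -0.11 for day 28 over day 14 and -0.10 for day 14 over day 5. Wnk1 (0.51) and Wnk4 (0.577) then fell under the limit for day 28 over day 5. For day 14 over day 5, Slc12a3 (0.54), Wnk4 (0.571), Calb1 (0.53) and S100g (0.53) fell under it. Relative to the median gene, 5 of the 10 genes were higher and 2 lower at day 28 than at day 5, with Wnk1 at 0.57 falling under the limit of 1.5-fold. For day 14 over day 5, 4 of the 10 were then higher (Pvalb 2.35, Trpm6 1.56, Klhl3 1.52 and Wnk4 0.61), while Slc12a3 (0.58), Calb1 (0.56) and S100g (0.56) lay just under the limit. For day 28 over day 14 the calls were Trpm6 (0.66), S100g (-1.35) and Trpv5 (-1.47) on this scale too, and for Lac.z over day 5 Wnk1 (0.61) joined the other 6.

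Further values moved with the libraries in DCT-like cells. The summed level of 13 immediate early genes, which respond to stimuli and to tissue dissociation, was 3192, 6384, 13153 and 18906 CPM. The summed level of 15 tubule injury genes ran the other way, at 17002, 7097, 5551 and 3668 CPM. Lcn2, the injury marker neutrophil gelatinase-associated lipocalin, stood at 918, 199, 38.8 and 63.1 CPM. The 10 macrophage markers summed to 970, 148, 59.8 and 34.2 CPM, the 14 proximal tubule markers to 1472, 1152, 1292 and 1838 CPM, and the 8 connecting tubule markers to 8520, 9420, 7162 and 3756 CPM. The 9 thick ascending limb markers summed to 2117, 2290, 2837 and 3357 CPM, and the 12 DCT markers, which named the class, to 3385, 4917, 5247 and 4989 CPM, lowest at day 5. The part of any of these in the ratios of the 10 genes was not tested.

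DCT-like cells were divided further into 6 sub-clusters, again without the 10 genes, which are called by number and leading genes. Sub-cluster 1 (147 cells) was led by the connecting tubule genes Klk1, Slc8a1 and Hsd11b2 and was highest for all 8 connecting tubule markers. Sub-cluster 5 (331 cells) was led by Jun, Cyr61 and Btg2 and was highest for 12 of the 13 immediate early genes, with a median of 3.46% mitochondrial UMIs. Sub-cluster 0 (272 cells) was led by Umod and mitochondrial transcripts, with a median of 33.2% mitochondrial UMIs and 2639 UMIs per cell. Sub-cluster 2 (75 cells) was highest for all 14 proximal tubule markers, sub-cluster 3 (116 cells) was led by the injury gene Lcn2, and sub-cluster 4 (89 cells) by Ckb and Glrx3.

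The mix of sub-clusters differed between libraries. Sub-cluster 5 held 3.77% (exact interval 0.460 to 12.98), 11.1% (5.88 to 18.6), 20.5% (15.8 to 25.8) and 43.7% (39.7 to 47.7) of the DCT-like cells. Sub-cluster 1 held 11.3% (4.27 to 23.0), 25.9% (18.0 to 35.3), 20.8% (16.1 to 26.2) and 9.50% (7.28 to 12.1). Sub-cluster 0 was the largest at day 5, with 34.0% of the cells, and sub-cluster 5 the largest at day 28, so the same class name covered different mixes.

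Over all libraries, Slc12a3 stood at 9108 CPM in sub-cluster 5, 4268 in sub-cluster 1 and 1057 in sub-cluster 4. S100g stood at 49936 CPM in sub-cluster 1 and 437 in sub-cluster 5. Pvalb stood at 20.5 CPM in sub-cluster 1 and 612 in sub-cluster 5, the other order. In sub-cluster 4 both were high, Pvalb at 1114 CPM and S100g at 8844 CPM, although 1795 of the 2938 S100g UMIs there came from 1 cell. Among 865 thinned DCT-like cells, 331 had a Pvalb UMI and 286 an S100g UMI, and 71 had both, whereas 225 of the S100g cells also had a Calb1 UMI. Of the 14, 15, 45 and 41 Trpv5 UMIs, 5, 14, 26 and 22 were in sub-cluster 1. At day 5 the other 9 were in sub-cluster 3, 7 of them in 1 cell, and sub-cluster 4 had 0 in its 89 cells.

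**Figure D3:**
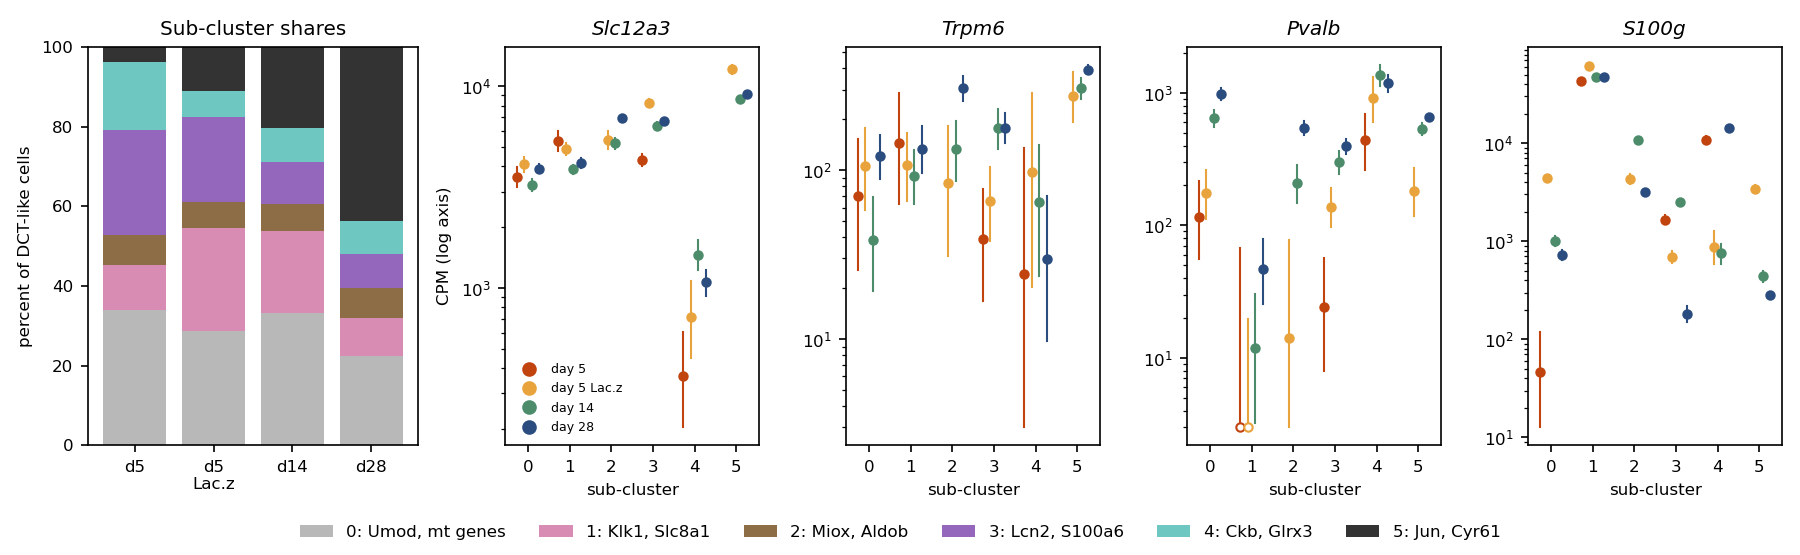
Left, percent of DCT-like cells in each of 6 sub-clusters by library; right, level of 4 genes (CPM, log axis) by sub-cluster and library with exact 95% Poisson intervals, where open points are sums of 0, values under 3 CPM are drawn at 3 and groups under 5 cells are not drawn. Sub-cluster 5 grows from 3.77% to 43.7% of cells from day 5 to day 28, S100g is highest in sub-cluster 1 in every library, with 2059 of the 2384 UMIs of the 6 day 5 cells in 1 cell, and Pvalb in sub-clusters 0 and 3 is lower in both day 5 libraries than later.

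Days 28 and 14 could be compared within sub-clusters 0, 1 and 5, which held at least 50 cells in both libraries. In sub-cluster 1, S100g stood at 46863 CPM at day 14 and 47341 at day 28, a ratio of 1.01 (0.987 to 1.03), whereas over the whole class it was 2.35-fold lower. Trpv5 in sub-cluster 1 had a ratio of 0.954 (0.515 to 1.75), from 26 UMIs at day 14 and 22 at day 28, too few for a call. Calb1 had a log2 ratio of -0.21 over the whole class but 0.50, 0.47 and 0.50 within sub-clusters 0, 1 and 5. The whole-class direction of Calb1 thus differed from that within each of the 3 sub-clusters compared, and the share of sub-cluster 1 moved from 20.8% to 9.50% beside it. Trpm6 was 3.14-fold higher (1.60 to 6.71) at day 28 in sub-cluster 0, from 47 and 11 UMIs, and 1.28-fold (1.10 to 1.504) in sub-cluster 5. Pvalb was 1.52-fold higher (1.28 to 1.83) in sub-cluster 0 and 1.23-fold (1.10 to 1.39) in sub-cluster 5. In sub-cluster 0 these 2 of 8 measured genes were higher and 0 lower, against 5.96% higher, 3.35% lower and 9.31% in either direction of 1343 genes. Relative to the median gene there, Pvalb was at 0.56 and within the limit, which left 1 higher. Wnk4 (1.52-fold, 1.12 to 2.07) was the only one of 7 measured genes lower in sub-cluster 1, against 4.85% of 1360 genes, and 0 were higher, against 9.34%; S100g (1.56-fold, 1.35 to 1.79) the only one of 9 lower in sub-cluster 5, against 7.69% of 6954 genes, and 0 were higher, against 4.47%.

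At day 5 the sub-clusters held 2 to 18 cells without Lac.z and 7 to 31 with it, so their values are a description. Pvalb in sub-cluster 0 stood at 117 (10 UMIs), 175 (23), 645 (184) and 984 (382) CPM. In sub-cluster 3 it stood at 24.4 (5 UMIs), 138 (36), 300 (95) and 394 (223) CPM, and in sub-cluster 5 at 97.1 (3), 183 (24), 536 (341) and 661 (1616). Within each of these 3 sub-clusters both day 5 libraries were below both later libraries. Slc12a3 in sub-cluster 0 stood at 3553, 4104, 3233 and 3888 CPM, a narrower range than over the whole class, and in sub-cluster 1 at 5350, 4875, 3865 and 4144 CPM, where day 5 was highest. Day 5 was the lowest library in the other 4, with 1196, 5431, 5219 and 6947 CPM in sub-cluster 2, 4295, 8230, 6349 and 6722 in sub-cluster 3, 365, 719, 1458 and 1065 in sub-cluster 4 and 6896, 12094, 8615 and 9103 in sub-cluster 5. With sub-cluster 5 left out, an alternative chosen after the data were seen, 6 (Lac.z), 5 (day 14) and 6 (day 28) of the genes were past 1.5-fold against day 5, and 4 for day 28 against day 14.

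**Figure D4:**
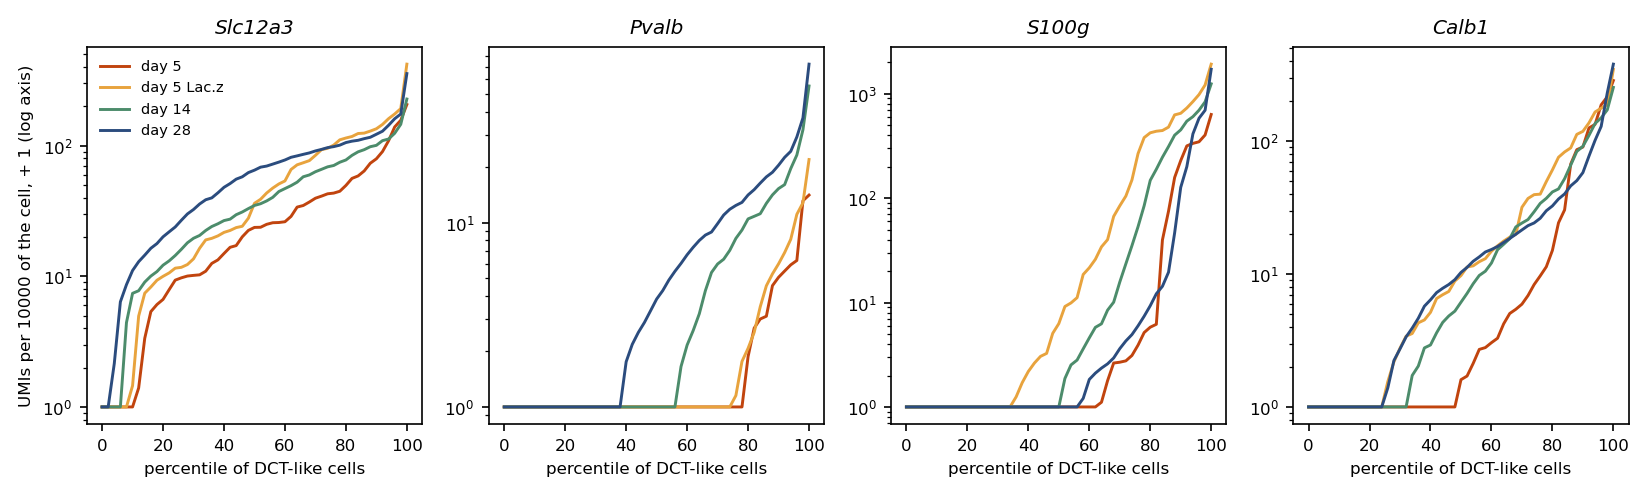
Distribution over DCT-like cells of UMIs per 10000 of the cell (plus 1, log axis) for Slc12a3, Pvalb, S100g and Calb1 by library, as percentiles of cells from lowest to highest. Slc12a3 has medians of 22.6 at day 5 and 63.8 at day 28, whereas S100g is carried by the top cells, with a 90th percentile of 648 in the day 5 Lac.z library and a median of 0 in the other 3.

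Pathway genes beyond the 10 were read from 3 lists of sodium chloride regulation, magnesium handling and calcium handling (48 genes in all, with 2, 4 and 1 DCT markers among them). At day 28 over day 5, 2 of 19 measured genes of the cotransporter regulation list were higher and 5 lower, against 23.6% higher and 8.46% lower of all genes. The higher ones were Sgk1, an aldosterone-induced kinase (log2 ratio 1.78), and Ppp1r1a, a phosphatase inhibitor (1.10), and the lower ones included the sodium channel subunit Scnn1g (-1.83) and Hsd11b2 (-1.68), which protects the mineralocorticoid receptor from glucocorticoids. The basolateral potassium channel genes Kcnj10 (-0.23) and Kcnj16 (-0.32) and the mineralocorticoid receptor Nr3c2 (0.30) stayed within the limit. Of 11 measured magnesium genes, 5 were higher and 0 lower, against the same shares, with Egf at 1.81, Slc41a3 at 1.53, Cnnm2 at 0.87 and Pcbd1 at 0.77, while Umod had a log2 ratio of 0.47. Egf, whose product activates magnesium uptake, stood at 242, 534, 788 and 851 CPM and was the only magnesium gene higher with Lac.z (1.14). Of 9 measured calcium genes, 1 was higher (the phosphate hormone coreceptor Kl, 0.82) and 3 were lower (the parathyroid hormone receptor Pth1r, -1.32, the kallikrein Klk1, -1.22, and the calcium-sensing receptor Casr, -0.67), and the sodium-calcium exchanger Slc8a1 was at 0.42.

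At day 14 over day 5, 2 of 17 cotransporter regulation genes were higher (Ppp1r1a 0.96, Sgk1 0.69) and 1 lower (Hsd11b2 -0.90), against 14.4% higher and 7.02% lower of all genes. Of the magnesium list, 2 of 9 were higher (Egf 1.70, Cnnm2 0.80), and of the calcium list, 2 of 8 (Kl 1.49, Slc8a1 1.24). With Lac.z at day 5, 1 of 15 cotransporter regulation genes was higher (the chloride channel subunit Bsnd, 0.75), 1 was lower (Hsd11b2, -0.90), and 0 of 8 calcium genes were called, against 6.01% higher and 8.54% lower of all genes. Between days 28 and 14, Sgk1 was higher (1.10), Scnn1g (-1.25), Scnn1b (-1.06) and Hsd11b2 (-0.78) were lower, 0 of 11 magnesium genes were called and 4 of 9 calcium genes were lower (Pth1r -1.03, Klk1 -0.96, Slc8a1 -0.82 and Kl -0.67), against 8.96% higher and 2.83% lower of all genes. All 7 of those lower genes were among the 10 leading genes of sub-cluster 1. The median log2 ratio over the 3 lists was 0.02, -0.02, -0.03 and 0.03 in the order Lac.z, day 14 and day 28 over day 5 and day 28 over day 14.

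Outside the DCT-like cluster, Trpm6 and Pvalb were at 13.04 CPM or less in the distal classes. In TAL-like cells, which reabsorb sodium chloride through another cotransporter, Pvalb had 0, 0, 0 and 2 UMIs and Trpm6 1, 1, 3 and 6. Trpv5 had 0 UMIs in all 672 TAL-like cells, where 3 counts would be 6.16, 3.92, 1.73 and 1.53 CPM. Slc12a3 stood at 38.6 CPM at day 28, but 64 of its 76 UMIs came from 1 cell. Wnk4 stood there at 123, 176, 193 and 201 CPM, and Klhl3 at 12.3, 20.9, 34.1 and 38.1 CPM. Wnk1 stood at 357, 269, 501 and 982 CPM and was 1.96-fold higher (1.81 to 2.13) at day 28 than at day 14, with a log2 ratio of 0.97, or 0.89 without mitochondrial genes. Of 6 measured genes, 2 were called higher (Wnk1 and the single-cell Slc12a3), against 11.1% of 6866 genes, and 0 lower, against 2.75%.

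Collecting duct principal-like cells, the salt and water reabsorbing cells of a later segment, also carried the calcium genes. Trpv5 stood at 125.5, 72.0, 71.3 and 30.0 CPM, above the DCT-like level in each library, from 72, 37, 82 and 26 UMIs. The lower bound of each interval (98.2, 50.7, 56.7 and 19.6) was above the upper bound in DCT-like cells of the same library (49.3, 30.5, 32.4 and 12.8). Within DCT-like cells, sub-cluster 1 alone had Trpv5 at 91.0, 75.1, 77.2 and 73.7 CPM, from 5, 14, 26 and 22 UMIs. From these few UMIs, it was below the principal-like value at day 5 and above it in the other libraries. In principal-like cells Calb1 stood at 1537, 1148, 2263 and 1014 CPM and S100g at 2308, 6267, 9758 and 1344 CPM. Pvalb had 0, 0, 1 and 1 UMIs. Between days 28 and 14, with 69 and 68 cells, 6 of 8 measured genes were lower, against 4.19% of 5509 genes: S100g by 7.26-fold (6.84 to 7.72), Trpv5 by 2.37-fold (1.51 to 3.85), Calb1 by 2.23-fold (2.07 to 2.41), Wnk1 by 2.03-fold (1.67 to 2.48), Klhl3 by 1.60-fold (0.966 to 2.72) and Wnk4 by 1.56-fold (1.16 to 2.13). Without the highest cell of each library Wnk4 fell under the limit (-0.40), the other 5 stayed past it, and Stk39 passed it upwards (0.69). Slc12a3 was called higher, against 6.44% of genes, but 88 of its 106 UMIs at day 28 came from 1 cell. Of 8 measured genes of the calcium list, 6 were lower too (Atp2b4 -1.66, Slc8a1 -1.56, Kl -1.39 and Vdr -1.31 among them). The summed connecting tubule markers, which include Atp2b4 and Slc8a1, stood at 7522 CPM at day 14 and 6664 at day 28. Hsd11b2, Scnn1b and Scnn1g in that sum are also principal cell markers, whose sum stood at 20009 and 25492 CPM. The connecting tubule sum therefore does not show how its unshared markers moved.

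In intercalated-like cells, the acid-base cells of the collecting duct, 2 of 6 measured genes were lower at day 28 than at day 14, against 7.55% of 7843 genes, and 0 were higher, against 2.93%. S100g was 4.14-fold lower (3.80 to 4.52), or -1.10 on the log2 scale without the highest cells, in which 1 cell held 1039 of 1926 UMIs at day 14. Calb1 was 2.59-fold lower (2.09 to 3.22), but 196 of its 229 UMIs at day 14 came from 1 cell, and its log2 ratio turned from -1.37 to 0.36 without the highest cells. Wnk4 stood at 69.7, 90.7, 87.8 and 91.7 CPM and Stk39 at 105, 94.8, 89.4 and 81.7 CPM, and Pvalb had 0 UMIs in all 4 libraries.

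The distribution of each gene over classes was set beside those of all genes with at least 200 UMIs in the distal classes, as Pearson r of log2(CPM + 10) over 36 library-by-class sums, of which 11 were distal. The sums share libraries, so r is a description. Most like Slc12a3 were Sall3 (0.963), Trpm6 (0.955), Lrrc52 (0.953), Pvalb (0.938) and Uroc1 (0.931), of which Sall3 was among the markers that named the class. Most like Trpm6 were Lrrc52 (0.975), Sall3 (0.967), Pvalb (0.967), Slc12a3 (0.955) and Klhl3 (0.935). Calb1 was most like Pgam2 (0.971), Scube3 (0.955), Ptgfr (0.952), 9230102O04Rik (0.949) and S100g (0.949), of which Pgam2 was also among the markers that named the DCT-like class. Wnk4 was most like Sdsl (0.976), Paqr5 (0.968), Me3 (0.968), Mapk15 (0.965) and Rassf6 (0.963).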

How the data were processed

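Counts of unique molecular identifiers per gene and cell barcode were deposited by the authors, 1 matrix per library. Per the file headers they were written by software version 3.0.2 (both day 5 libraries) and 3.1.0 (days 14 and 28). In every comparison of day 14 or day 28 with day 5, day and software version changed together and cannot be told apart. Per the submitters' processing notes the reads were placed on mm10; the aligner and annotation were not given in the sources used here. Barcodes with fewer than 200 genes or more than 50% mitochondrial counts were dropped, the cells with the highest simulated-doublet scores were removed (0.8% of a library for every 1000 of its cells), and cells of all libraries were clustered in scanpy 1.11.5 (2000 variable genes, 30 components, 20 neighbours, resolution 1) without the 10 genes. A cluster was named where its marker score reached 1 with a lead of 0.75 and 3 markers detected. DCT-like cells were clustered again at resolution 0.6 with 15 components.

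Counts were summed per class and library (CPM), with exact Poisson intervals, exact conditional intervals for ratios and exact Clopper-Pearson intervals for shares, all at 95% (scipy 1.17.1). With 1 library per group no test was run. The ratio code was tested on simulated data. The 10 genes and all lists were chosen with earlier results of these data known. Besides the 10, the text names up to 4 genes per pathway list and class with the largest ratio past 1.5-fold, 8 preset genes (among them Kcnj10 and Umod), the 5 genes most like Slc12a3, Trpm6, Calb1 and Wnk4, and markers of other cell types. Lcn2 and genes that led sub-clusters were named after their values were seen. Median mitochondrial counts per barcode were 5.25% to 18.6% over the libraries.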

Additional observations from a re-analysis of the deposited data

Results flagged for a closer look

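Wnk1 moved in opposite directions between days 14 and 28 in TAL-like and collecting duct principal-like cells. Its log2 ratio of day 28 over day 14 was 0.97 in TAL-like cells (501 to 982 CPM) and -1.02 in collecting duct principal-like cells (336 to 165 CPM). It was 0.14 in DCT-like cells and -0.17 in intercalated-like cells, both within the limit. In principal-like cells Wnk1 was 1 of 6 lower genes among 8 measured, so the fall there was not particular to Wnk1. In TAL-like cells it was 1 of 2 higher genes among 6 measured. The difference between the classes was not tested, since each class had 1 library per day.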

How the results depend on the processing

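No paired analysis was possible because each group had 1 library. Over 24 ratios of the 10 genes past 1.5-fold in DCT-like cells, 195 of 200 alternative values kept their direction and 169 were past the limit in either direction. The 24 values with no minimum of UMIs repeat the main ratios. Leaving out mitochondrial genes moved all ratios of a comparison by a shared amount, too small to turn any. The 24 directions kept under each of these settings were therefore fixed beforehand and show no robustness. The 5 that turned were S100g at day 14 over day 5 without doublet removal (-0.089), Calb1 for Lac.z over day 5 with cells gated one by one on markers (-0.54), and S100g at day 28 over day 5 with a mean over cells (0.13), without the immediate early sub-cluster (0.44) and without the highest cell of each library (0.65). The share of DCT-like cells moved to 0.530% (day 5), 0.992% (Lac.z) and 2.18% (day 14) with a mitochondrial limit of 25%, to 5.25% (day 28) without doublet removal, to 0.0898%, 0.466%, 0.928% and 2.64% at resolution 2, to 1.63%, 4.92%, 5.12% and 5.93% with the per-cell gate, to 2.30% at day 28 with libraries clustered separately, and to 3.97%, 3.13%, 4.81% and 6.49% of named tubule cells. The count of the 10 genes past 1.5-fold moved for day 14 over day 5 from 7 to 3 without mitochondrial genes. With a mean over cells it was 4. For day 28 over day 5, Wnk1 and Wnk4 left the count without mitochondrial genes. For day 28 over day 14 the count moved from 3 to 1 at resolution 2, 9 with the per-cell gate and 5 with a mean over cells. Pathway genes past the limit moved from 3 to 10 (gate), 5 (the 10 genes used in clustering), 11 (mean over cells) and 11 (no minimum of UMIs) for Lac.z over day 5, from 7 to 17 (gate) and 13 (no minimum) for day 14, from 16 to 28 (gate) for day 28 over day 5, and from 8 to 4 (resolution 2), 15 (gate), 14 (no minimum) and 3 (without the connecting tubule sub-cluster) for day 28 over day 14. The cause was not tested. Alternatives that dropped a sub-cluster or the highest cells, and the tubule denominator, were chosen after seeing the data. Day 5 comparisons could not be had at the 25% limit (32 cells), at resolution 2 (6 cells), or without the proximal or connecting tubule sub-cluster (49 and 47 cells), and libraries clustered separately gave a DCT-like cluster at day 28 alone (288 cells). The 53 DCT-like cells at day 5 limit the precision of every ratio against that library.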
